A study of Mus musculus with 10 samples.

Results

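The genes of the pre-B-cell receptor and of V(D)J recombination were followed in RNA of CD34- hematopoietic stem cells (HSCs) from mouse bone marrow. The 10 members are Igll1, Vpreb1, Vpreb2, Vpreb3, Cd79a, Cd79b, Dntt, Rag1, Rag2 and Blnk, out of 33393 genes in the files. They were chosen by name, with the contrast of Reg1_KO against Control libraries already known, so their levels in that contrast are a description and carry no test. CD34- HSCs are lineage-negative, Sca-1+ and c-Kit+ cells without CD34 and Flt3 on their surface, sorted from bone marrow of C57BL/6 mice aged 8 weeks (of the femur in the deposited design, of femur and tibia in the methods). The 5 Control libraries came from Reg1 flox/flox mice, whose Regnase-1 gene (Zc3h12a) is floxed but intact, and the 5 libraries labelled Reg1_KO from Vav1-iCre Reg1 flox/flox mice, in which vav promoter elements drive Cre in blood cells. Thus both groups carry the floxed alleles and only the second carries Cre.

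The values are in TPM, the share of a library's transcripts after scaling for transcript length, added up per gene. TPM keeps no read numbers, so depth is unknown and no counting error can be given. By their titles the libraries fall into 2 library sets, with 3 libraries of each group in set 1 and 2 of each (LT-HSC1 and LT-HSC2) in set 2. Protein-coding transcripts held 46.2% to 49.1% of the TPM in set 1 and 73.5% to 81.1% in set 2. Genes at 1 TPM or more numbered 13366 to 14307 in the Control libraries and 11256 to 12048 in those labelled Reg1_KO. The deleted gene, Zc3h12a, was at 1.28 to 6.07 TPM in Control and at 2.08 to 10.3 TPM in the libraries labelled Reg1_KO, against the label. Within each library set every library labelled Reg1_KO was above every Control, at 2.08 to 3.54 against 1.28 to 1.83 TPM in set 1 and at 8.52 and 10.3 against 1.48 and 6.07 TPM in set 2. This level covers the whole gene and is not limited to the deleted part, so it does not test the deletion itself, and every direction below is by label. Stem cell markers summed to 579 to 1310 TPM in Control and to 251 to 634 TPM in the libraries labelled Reg1_KO, and 12 of the 13 tested were lower in the latter (limma, adjusted p under 0.05). Ly6a, which encodes Sca-1 and was not lower, made up much of the latter sums, at 50.9 to 449 TPM against 68.1 to 108 TPM in Control. Among the lower genes Procr, which encodes the stem cell surface receptor EPCR, was at 19.8 to 37.3 TPM in Control and 0.108 to 1.36 TPM in the libraries labelled Reg1_KO.

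A B cell precursor assembles its antigen receptor by cutting and joining V, D and J segments. Rag1 and Rag2 encode the recombinase that makes the cuts, and Dntt encodes TdT, which adds bases without a template at the joins. Before a light chain exists, the newly made heavy chain is held at the surface by a surrogate light chain, built from the products of Igll1 (lambda5) and Vpreb1 or Vpreb2, together with the signalling chains Ig-alpha (Cd79a) and Ig-beta (Cd79b). Blnk encodes the adaptor that carries the signal onwards, and Vpreb3 encodes a relative of the VpreB proteins found in precursor B cells. Igll1, Vpreb1 and Vpreb2 mark the pro-B and pre-B stages. These stages lie well past the stem cell and are not among the cells that the surface gate describes. The other members are not all limited to these stages, and Cd79a and Cd79b also count as B cell markers.

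Igll1, at chr16:16860671-16863985 on the minus strand of GRCm38, was the highest surrogate light chain gene in 4 of the 5 Control libraries. Its level was 36.5, 330, 323, 307 and 223 TPM in Control 1, 2, 3, LT-HSC1 and LT-HSC2. It was 0.382, 5.36, 0.139, 0.531 and 0 TPM in Reg1_KO 1, 2, 3, LT-HSC1 and LT-HSC2. The groups did not overlap: the lowest Control library was 6.8 times the highest library labelled Reg1_KO. The 250 bases before its RefSeq start are shown because they hold 3 of the 4 motifs searched in the members' promoters; capitals mark, from the 5′ end, an EBF core, a palindromic E-box and the E-box bound by E2A. They lie at chr16:16863986-16864235 (GRCm38.p6, minus strand).
Igll1: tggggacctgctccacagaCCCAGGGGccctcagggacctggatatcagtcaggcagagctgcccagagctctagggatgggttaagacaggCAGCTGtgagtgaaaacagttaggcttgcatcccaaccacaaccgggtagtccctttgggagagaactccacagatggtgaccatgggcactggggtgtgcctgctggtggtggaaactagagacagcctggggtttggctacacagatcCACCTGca

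Vpreb1 lies 4418 bases from Igll1 on the same strand, and Vpreb2 lies 1109585 bases further along chromosome 16. Vpreb1 was at 24.7, 217, 242, 298 and 230.0 TPM in the Control libraries, in the order above, and at 0.753, 4.40, 0.599, 1.38 and 0 TPM in the libraries labelled Reg1_KO. Vpreb2 was at 6.71, 53.8, 57.5, 34.5 and 23.7 TPM in Control and at 0.376, 1.84, 0, 0 and 0.304 TPM in the libraries labelled Reg1_KO. In both genes Control 1 was far below the other Control libraries, and no Control library was as low as any library labelled Reg1_KO. The ratio of Igll1 to Vpreb1 stayed between 0.968 and 1.52 in the Control libraries, the low Control 1 included (1.48). The ratio of Vpreb1 to Vpreb2 was 3.67 to 4.20 in the set 1 Controls and 8.63 and 9.69 in the set 2 Controls.

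The split of reads between Vpreb1 and Vpreb2 is uncertain, because the genes are near copies. Their coding sequences have 429 bases each and differ at 9 of them (97.9% identical), and 42.6% of all windows of 50 bases in Vpreb1 are also found in Vpreb2. The files also give Vpreb2 a transcript model of 429 bases, against 766 for Vpreb1. A stretch of 120 coding bases (268 to 387, counted from the start codon; GENCODE M21) is shown because it holds 6 of the 9 differences, in capitals. It lies at chr16:16868638-16868757 (minus strand) in Vpreb1 and at chr16:17980919-17981038 (plus strand) in Vpreb2.
Vpreb1: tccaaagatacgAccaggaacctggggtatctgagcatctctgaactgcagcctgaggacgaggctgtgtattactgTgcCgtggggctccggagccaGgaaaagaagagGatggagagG
Vpreb2: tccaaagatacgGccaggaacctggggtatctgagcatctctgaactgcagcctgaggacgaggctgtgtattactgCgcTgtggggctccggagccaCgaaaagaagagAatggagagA

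The likeness extends upstream of the RefSeq starts of both genes, though for Vpreb1 the stretch lies inside its GENCODE span. The stretch of 106 bases just before the RefSeq start of Vpreb1 (chr16:16869256-16869361, minus strand) matches one that starts 250 bases before that of Vpreb2 (chr16:17980315-17980420, plus strand) except at 2 bases, in capitals. Both copies hold the E-box caggtg.
Vpreb1: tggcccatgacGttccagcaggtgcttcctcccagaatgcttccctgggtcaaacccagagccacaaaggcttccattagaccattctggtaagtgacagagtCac
Vpreb2: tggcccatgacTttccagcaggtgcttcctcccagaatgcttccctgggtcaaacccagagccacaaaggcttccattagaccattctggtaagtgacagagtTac

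Vpreb3, on chromosome 10 (75943057-75949657, plus strand), was at 14.8, 150, 133, 208 and 198 TPM in Control and at 0.495, 2.18, 0.229, 1.15 and 0 TPM in the libraries labelled Reg1_KO. Its order of libraries was that of Vpreb1 at the extremes, with Control 1 lowest of the Controls and Reg1_KO 2 highest of the other group. For 9 of the 10 members Reg1_KO 2 was the highest of the 3 set 1 libraries with that label, and the exception was Cd79b.

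The signalling chains differed in how far down they went. Cd79a, on chromosome 7 (24897381-24902197, plus strand), was at 15.7, 102, 100.4, 194 and 195 TPM in Control and at 0.168, 1.74, 0.0285, 0.172 and 0.0597 TPM in the libraries labelled Reg1_KO. Cd79b, on chromosome 11 (106311341-106314762, minus strand), was at 37.4, 82.9, 82.9, 118 and 130 TPM in Control and at 4.71, 4.07, 4.17, 3.83 and 2.07 TPM in the libraries labelled Reg1_KO. Cd79b was thus the member with the most even level in the libraries labelled Reg1_KO, above 1 TPM in 5 of 5, whereas Cd79a was above 1 TPM in 1 of 5. Cd79b made up 6.87% to 20.2% of the TPM of the 10 members in Control and 16.5% to 74.4% in the libraries labelled Reg1_KO. The ratio of Cd79a to Cd79b was 1.21 to 1.64 in 4 Controls, 0.42 in Control 1 and 0.00684 to 0.426 in the libraries labelled Reg1_KO.

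Dntt and Blnk are neighbours on chromosome 19, with 34740 bases between them. Dntt (41029275-41059525, plus strand) was at 37.2, 152, 110, 365 and 314 TPM in Control and at 1.66, 3.62, 0.303, 1.20 and 0.404 TPM in the libraries labelled Reg1_KO. It was the highest member in the set 2 Controls. Blnk (40928927-40994535, minus strand) was at 7.87, 91.0, 58.0, 104 and 93.0 TPM in Control and at 0.641, 1.16, 0.123, 0.611 and 0.398 TPM in the libraries labelled Reg1_KO. In neither gene did the groups overlap.

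Rag1 and Rag2 lie 5753 bases apart on chromosome 2 and are transcribed towards each other. Rag2 (101624718-101632529, plus strand) was at 4.38, 27.3, 16.4, 22.4 and 24.9 TPM in Control and at 0.211, 0.289, 0.0107, 0.0873 and 0.318 TPM in the libraries labelled Reg1_KO. Rag1 (101638282-101649501, minus strand) was at 0.149, 1.1 and 1.33 TPM in the set 1 Controls and at 19.1 and 24.2 TPM in the set 2 Controls. It was at 0.0569 TPM or less in every library labelled Reg1_KO and listed at 0 in LT-HSC2. The ratio of Rag1 to Rag2 was therefore 0.034 to 0.0812 in the set 1 Controls and 0.854 and 0.972 in the set 2 Controls. Rag1 was the only member below the filter for testing, 1 TPM or more in 5 or more libraries, which left 9 members among 12874 genes. Each of these 9 reached 1 TPM in all 5 Controls and so would pass on those alone, whereas Rag1 reached it in 4 libraries.

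**Figure D1:**
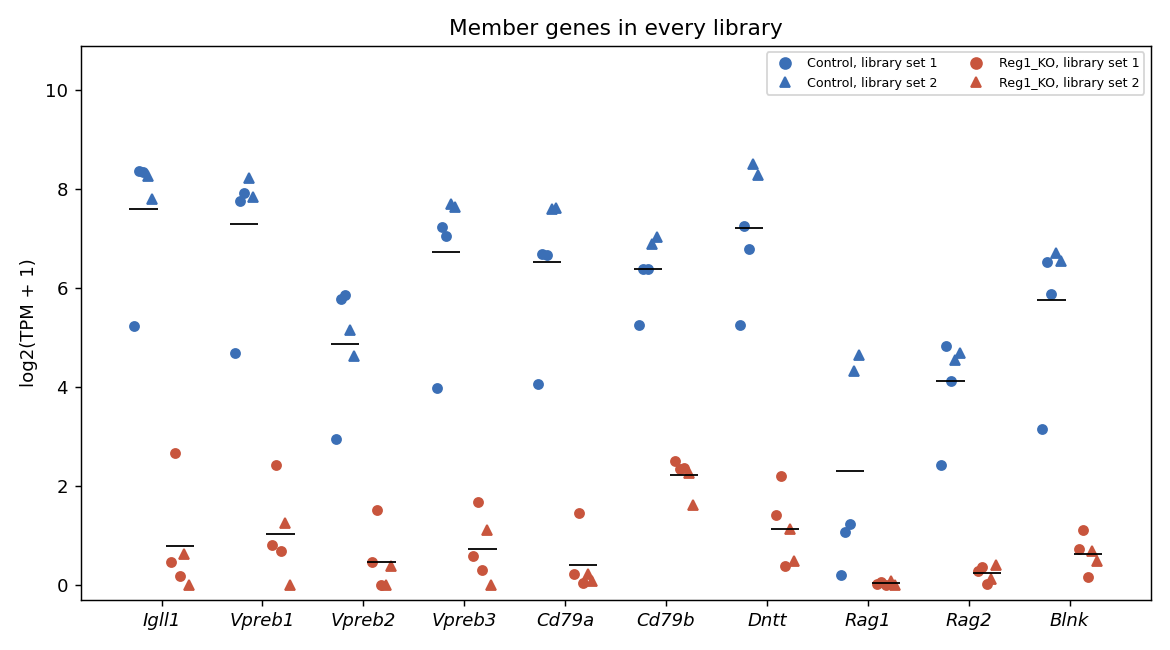
Level of each member, as log2(TPM + 1), in every library; circles are library set 1, triangles set 2, blue Control and red the libraries labelled Reg1_KO, and black lines are group means. No member overlaps between the groups, Control 1 is the lowest blue point in each column, and Cd79b has 4 of its 5 red points at 3.83 TPM or more.

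On the log2(TPM + 1) scale, where the pseudocount of 1 understates the change of low genes, the log2 fold change of Reg1_KO over Control ranged from -6.81 (SE 0.711) for Igll1 to -2.27 (SE 0.663) for Rag1. It was -6.26 (SE 0.704) for Vpreb1, -6.12 (SE 0.609) for Cd79a and -6.10 (SE 0.578) for Dntt. The median of the 9 members that passed the filter was -6.00, against -0.255 for all tested genes. All 9 were past an adjusted p under 0.05 and lower in limma, a call that 37.9% of all tested genes share and that says nothing here, since the members were picked from this contrast. All 10 members lay below every Control library in each library labelled Reg1_KO, as did 20.0% of the tested genes. In bulk RNA, fewer cells that express these genes and less RNA per cell cannot be told apart.

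Markers of other cell types were also summed, and most of these sums were lower in the libraries labelled Reg1_KO. B cell markers other than the members summed to 301 to 760 TPM in Control and to 3.39 to 135 TPM in the libraries labelled Reg1_KO. All 6 tested were lower. Most of this sum was a single gene, Ighm, the mu heavy chain. It was at 272 TPM in Control 1 and at 134 TPM in Reg1_KO LT-HSC1, the libraries with sums of 301 and 135 TPM. T cell markers summed to 166 to 294 against 6.87 to 17.5 TPM, with 6 of 6 tested lower, although Cd3e, a chain of the T cell receptor complex, was at 1.65 TPM or less in every library. Neutrophil markers summed to 3040 to 13100 against 309 to 968 TPM, with 6 of 8 lower. Erythroid markers summed to 1700 to 6360 against 717 to 1180 TPM, with 4 of 7 lower and 2 higher. Globin genes held most of that sum in Control. The higher genes were Klf1, at 27.8 to 131.9 against 242.5 to 322.4 TPM, and Epor, at 11.5 to 60.8 against 68.7 to 96.9 TPM. Plasma cell markers summed to 86.1 to 257 against 46.6 to 77.6 TPM, with 3 of 3 tested lower. Xbp1 alone was at 78.3 TPM in Control 2, which had the lowest Control sum. Natural killer cell markers summed to 86.1 to 275 against 36.1 to 144 TPM, with 2 of 2 tested lower and no overlap within either library set. Nkg7 alone was at 269 TPM in Control 1, which had the highest sum. Plasmacytoid dendritic cell markers summed to 205 to 266 against 192 to 270 TPM, with 2 of 4 lower and 2 higher, and overlapped within set 1. Cd34 and Flt3, which the gate selects against, and Cd48, a marker of more mature progenitors that the gate did not use, summed to 125 to 370 against 76.1 to 146 TPM, with no overlap within either library set. Of these 3, Cd34 and Flt3 were lower, and Cd48 was at 59.2 to 108 TPM in Control and 65.4 to 124 TPM under the other label. The part of such cells in the values of the members was not tested.

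Within the Control group, Control 1 differed from Controls 2 and 3 of the same library set in these genes. Its TPM was 10.5% of their mean for Vpreb3, 10.6% for Blnk, 10.8% for Vpreb1, 11.2% for Igll1 and 12.1% for Vpreb2. It was 12.2% for Rag1, 15.5% for Cd79a, 20.0% for Rag2 and 28.4% for Dntt, and it was least reduced for Cd79b, at 45.1%. Of the 9 members that passed the filter, 6 were at least 2 lower on the log2 scale than both Controls, as were 0.388% (50) of all tested genes. The median difference of Control 1 from the mean of Controls 2 and 3 was -2.88 over the members and 0.11 over all tested genes. There is only 1 such library, so the difference has no replicate check.

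Only 14 protein-coding genes met that limit, and 6 of them were members. Among the others, Ebf1 was at 2.86 TPM in Control 1 and at 50.2 and 52.6 TPM in Controls 2 and 3. Ebf1 encodes the transcription factor that starts the B cell program. Lef1 was at 7.33 against 52.4 and 49.6 TPM, Slamf6 at 7.91 against 49.5 and 43.3 TPM, and Id3 at 4.07 against 26.6 and 23.2 TPM. A clone-named gene, Hist1h4k and Kbtbd11 also met the limit. Pax5, which fixes B cell identity and did not pass the filter, was at 0.871 TPM in Control 1, 17.8 TPM in Control 2 and 3.22 TPM in Control 3.

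The sum of the B cell markers that are no members, most of it Ighm, was 301 TPM in Control 1. It was 475 and 760 TPM in Controls 2 and 3, but the other marker sums did not go down with it in Control 1. Its stem cell marker sum, 1310 TPM, was the highest of the Controls, and its T cell sum of 294 TPM was also the highest. Its neutrophil sum was 5310 TPM, between 5390 TPM in Control 2 and 3040 TPM in Control 3. Igkc, the constant region of the kappa light chain, was at 294, 19.3 and 411 TPM in Controls 1, 2 and 3, so its lowest library was not that of the members. Ighm, the mu heavy chain, was at 272, 305 and 569 TPM there and Ighd, the delta chain, at 1.79, 2.96 and 9.63 TPM, both lowest in Control 1 as the members were. The ratio of Igkc to Igll1 was 8.06, 0.0584, 1.27, 4.85 and 3.49 in Control 1, 2, 3, LT-HSC1 and LT-HSC2, with Control 2 far below the others.

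Some libraries labelled Reg1_KO held light chain RNA with little RNA of the surrogate light chain. Igkc was at 146 TPM in Reg1_KO 1 and at 4.17 TPM or less in the other 4, although Igll1 was at 0.382 TPM in Reg1_KO 1. Iglc1, a lambda constant region, was at 341 TPM in Reg1_KO 1 and 164 TPM in LT-HSC1, and at 0.168 TPM or less in the other 3. It was at 7.05 to 349 TPM in Control, so its groups overlapped. Ighm was at 54.0 and 134 TPM in those same Reg1_KO libraries and at 3.06 to 7.46 TPM in the others. Jchain, the joining chain of secreted antibodies and a plasma cell marker, moved with them, at 3.69 TPM in Reg1_KO 1, 22.1 TPM in LT-HSC1 and 0.0494 TPM or less in the other 3. In Control 1, 2, 3, LT-HSC1 and LT-HSC2 it was at 8.84, 0.148, 21.8, 185 and 93.5 TPM, in the same order as Igkc, and the part of plasma cells in these values was not tested. The library with the most surrogate light chain of that label, Reg1_KO 2, was thus not one with much Igkc (1.18 TPM) or Iglc1 (0 TPM).

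**Figure D2:**
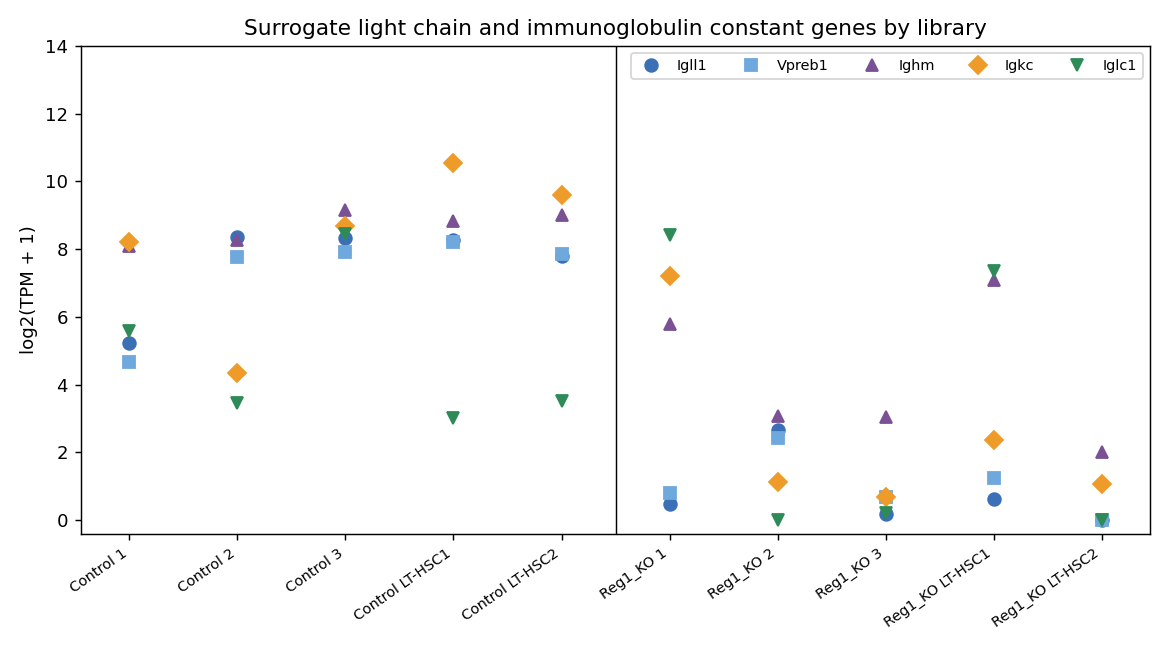
Level, as log2(TPM + 1), of the surrogate light chain genes Igll1 and Vpreb1 and of the immunoglobulin constant region genes Ighm, Igkc and Iglc1 in each library, Control at left and Reg1_KO at right. Control 2 is high in Igll1 (330 TPM) and low in Igkc (19.3 TPM), whereas Reg1_KO 1 is low in Igll1 (0.382 TPM) and high in Iglc1 (341 TPM).

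The library sets gave a contrast that the choice of members did not use, set 2 against set 1 within the 5 Controls. Dntt was higher in set 2, by 1.97 on the log2 scale (SE 0.589, adjusted p = 0.0414, limma), and was the only one of the 9 tested members to pass, where 17.0% of all tested genes were higher in set 2 and 24.6% were lower. Its call was lost without Control 3, without LT-HSC1 and without LT-HSC2, with a pseudocount of 0.1 and with no filter (adjusted p = 0.196), and the adjusted p ranged from 0.0223 to 0.196 over 9 alternatives. Without LT-HSC1 or LT-HSC2, set 2 has 1 Control, which is assumed to vary like those of set 1. Where every library had to reach 1 TPM, Dntt was not tested and Cd79b passed in its place. Without Control 1, Cd79a also passed, higher in set 2 by 0.93 (adjusted p = 0.0293). Rag1 was tested only with no filter, where it was higher in set 2 by 3.66 (SE 0.393, adjusted p = 0.0171, limma), its TPM being 25.1 times that of set 1. Rag2, its partner in the recombinase, differed by 0.83 (SE 0.682, adjusted p = 0.367) and Igll1 by 0.72 (SE 0.99, adjusted p = 0.586). The sizes for Igll1, Rag2 and Dntt depend on Control 1: without it that of Igll1 turned to -0.32, that of Rag2 was 0.15 and that of Dntt was 1.38. The Dntt call held without Control 1 (limma adjusted p = 0.0223). Rag1 had no such fit, but its set 2 TPM was 17.8 times that of Controls 2 and 3.

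**Figure D3:**
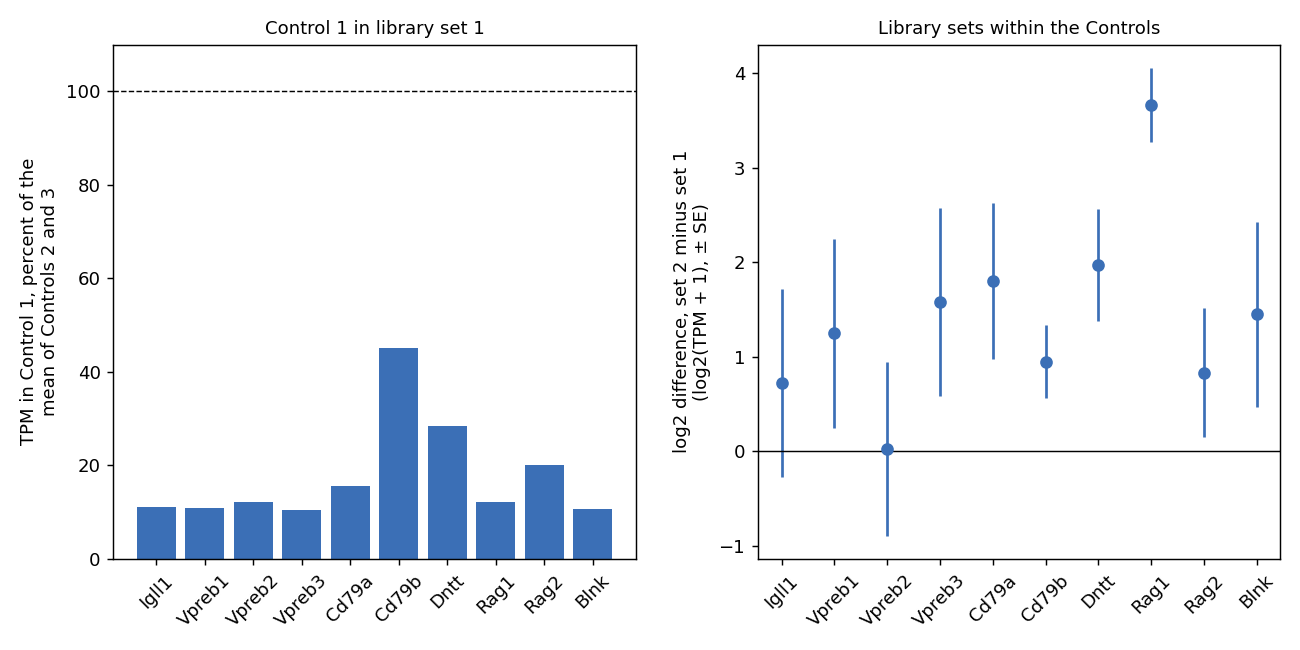
Left, TPM of each member in Control 1 as a percentage of the mean of Controls 2 and 3, with 100% dashed; right, log2 difference between the set 2 and set 1 Controls with its SE from limma (Rag1 from the fit with no filter). Every bar is below 46%, lowest for Vpreb3 (10.5%) and highest for Cd79b (45.1%), and Rag1 stands highest at right (3.66).

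The estimates of single transcripts showed further differences between library sets. Blnk has a transcript of 2097 bases and one of 1701 bases, whose coding parts differ by 9 bases. The shorter held 73.0% of the Blnk TPM of the set 1 Controls and 71.1% of that of set 1 libraries labelled Reg1_KO, but was listed at 0 in all 4 libraries of set 2. Of the Rag2 transcripts, which share one coding sequence, the longer held 13.4% in the set 1 Controls and 34.8% in the set 2 Controls. The longer Cd79b transcript held 8.42% and 15.0% there. It made up all of the 2.07 TPM of Cd79b in Reg1_KO LT-HSC2. Dntt, Cd79b and Rag2 kept the same leading transcript in both sets of Controls, and Blnk did not.

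The longer form of TdT RNA, Dntt-201, held 17.9% of the Dntt TPM in the set 1 Controls and 23.5% in the set 2 Controls, and Dntt-202 held the rest. In Control 1 the longer form held 6.32%, the lowest share of any Control. In the libraries labelled Reg1_KO it was above 0 only in Reg1_KO 2, at 0.611 TPM. Compared with Dntt-202, its coding sequence holds 60 more bases, at chr19:41058567-41058626 (GRCm38, plus strand), which are shown because they are all that tells these coding sequences apart.
Dntt-201: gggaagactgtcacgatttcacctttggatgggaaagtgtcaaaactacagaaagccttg

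Partner genes of the members, listed for the same pathway or more broadly for the B lineage, were tested in limma over all genes. They were not chosen from the contrast gene by gene. Of 89 tested partner genes, 63 were lower and 5 higher in the libraries labelled Reg1_KO at an adjusted p under 0.05, against 37.9% and 15.0% of all tested genes, and their median log2 fold change was -1.65. Without Control 1, 64 were lower and 5 higher. The lists were written with the fall of the B cell genes known, so these counts are no independent evidence of its direction. A partner gene can also pass the filter on the 5 Controls alone, as Pou2af1 and Lef1 did.

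In the list of pre-B-cell receptor signalling, 18 of 20 tested genes were lower, none was higher and 2 did not pass (median log2 fold change -1.57). Plcg2, the phospholipase that Blnk brings to Btk, was at 41.1 to 65.8 TPM in Control and at 4.07 to 5.76 TPM in the libraries labelled Reg1_KO (log2 fold change -3.15, adjusted p = 2.74e-07). Pik3ap1, an adaptor for phosphoinositide 3-kinase, changed by -3.38 and Sla2, an adaptor that dampens receptor signals, by -3.09. Syk, the kinase that binds the Cd79 chains, was at 21.5 to 40.0 TPM against 4.82 to 10.5 TPM (-1.93, adjusted p = 4.44e-07). Btk, the next kinase in the chain, did not pass (0.19, adjusted p = 0.0987), though with median-of-ratios scaling it was higher (adjusted p = 0.00112).

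Genes that repair the cuts were split between the directions. Of 19 tested genes of recombination and end joining, 3 were lower, 3 were higher and 13 did not pass, with a median log2 fold change of -0.072. Trp53bp1, which holds broken ends for end joining, was lower by a log2 fold change of -1.61 (adjusted p = 7.93e-05), Xrcc4 by -1.21 (7.49e-05) and Lig4, its ligase partner, by -0.56 (0.0089). Mre11a and Nbn of the MRN complex, which senses breaks, were higher by 0.73 (adjusted p = 0.015) and 0.41 (0.00628). Rad50, the other subunit, did not pass (0.05, adjusted p = 0.788), though with median-of-ratios scaling it was higher (0.39, limma adjusted p = 0.0372). The calls of Mre11a and Nbn were lost with no covariate and in library set 2 alone, and that of Nbn also in library set 1 alone. The balance depends on scaling: with quantile normalization 2 were lower and 7 higher, and with median-of-ratios scaling 3 and 7. The median of all tested genes was 0.141 and 0.0499 under these settings, against -0.255. Under quantile normalization Lig4 turned to 0.30 and did not pass (adjusted p = 0.0829).

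Of 20 tested transcription factors listed for the B lineage, 16 were lower, 1 was higher and 3 did not pass. The list is broad, so this is not a count of factors limited to that lineage. Among the lower ones were Erg (log2 fold change -3.16), Spi1 (-2.54), Runx1 (-1.48) and Id2 (-3.56). Pou2af1, the coactivator of octamer-binding factors, was at 4.91 to 51.8 TPM in Control and at 0.162 TPM or less in the libraries labelled Reg1_KO (log2 fold change -4.60, adjusted p = 3.81e-05). Lef1 changed by -4.41, Ebf1 by -4.16 (SE 0.672, adjusted p = 0.000625) and Ets1 by -3.75. Pax5 was at 0.871 to 17.8 TPM against 0.0312 TPM or less and was not tested, as it did not pass the filter. The higher gene was Ikzf1, which encodes Ikaros, at 34.4 to 187 TPM against 110 to 263 TPM (0.92, SE 0.23, adjusted p = 0.00771). Within each library set its groups did not overlap, but the call was lost with no covariate and in library set 2 alone. Tcf3, which encodes the E2A proteins, did not pass (0.02, adjusted p = 0.882), though with median-of-ratios scaling it was higher (adjusted p = 0.0125).

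Of 24 tested early lymphoid and B-lineage surface genes, 21 were lower and 1 was higher. Il7r, the interleukin-7 receptor chain on which early B cells depend, was at 5.93, 19.9, 16.2, 23.0 and 24.8 TPM in Control and at most 1.15 TPM, in Reg1_KO 2, under the other label (log2 fold change -3.75, SE 0.355, adjusted p = 2.15e-05). Mzb1, a chaperone of immunoglobulin, changed by -5.17, Ly6d, a mark of B cell-biased lymphoid progenitors, by -4.38 and Cd72 by -3.50. Flt3, the receptor that the sort selects against, was at 11.0 to 33.9 TPM in Control, highest in Control 1, and at 1.16 to 2.21 TPM under the other label (-2.85, adjusted p = 3.01e-06). The higher gene, Cd24a, rose by 0.51 (adjusted p = 0.0165), a call not made under quantile normalization (adjusted p = 0.0518), with no covariate or in either library set alone. Ptcra, the T-lineage counterpart of the surrogate light chain, was at 0.516 TPM or less in every library.

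Of the 6 immunoglobulin constant region genes, 5 were lower: Igkc (log2 fold change -5.79, SE 1.45, adjusted p = 0.0078), Iglc2 (-5.13), Ighm (-4.47, SE 0.881, adjusted p = 0.00207), Iglc3 (-3.24) and Ighd. Iglc1 did not pass (adjusted p = 0.519). The call of Igkc was lost in library set 1 alone, and its groups overlapped, with Reg1_KO 1 at 146 TPM above Control 2 at 19.3 TPM. The errors of Igkc and Ighm were larger than those of any member, and the lambda copies Iglc1, Iglc2 and Iglc3 share sequence, so the split among them is uncertain.

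**Figure D4:**
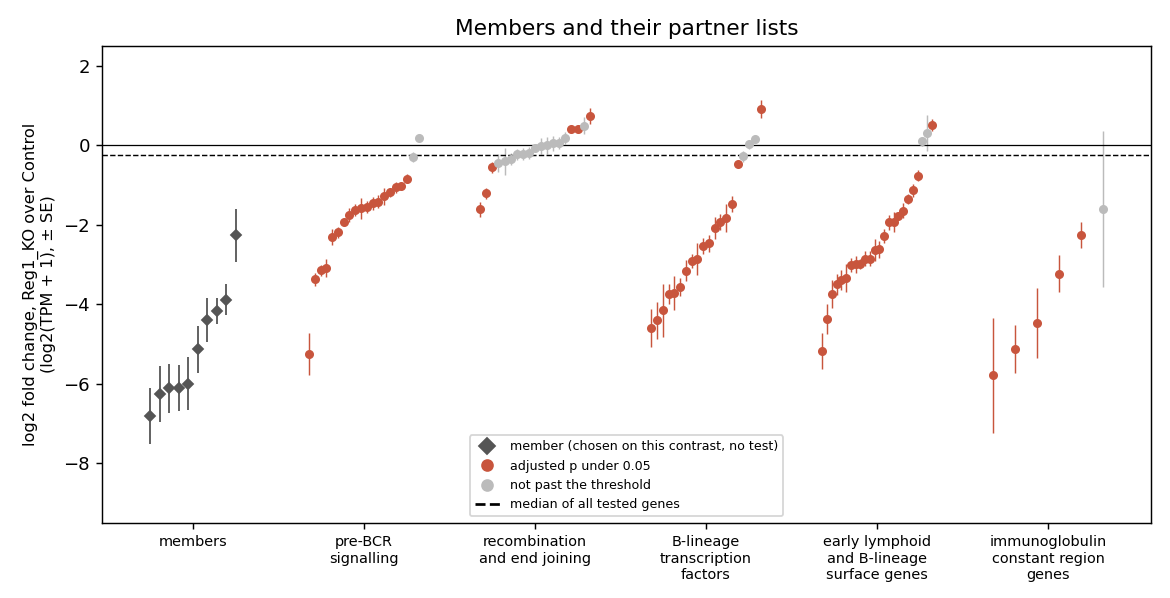
Log2 fold change of Reg1_KO over Control with its SE, on the log2(TPM + 1) scale, for the 10 members (grey diamonds, no test) and for the tested genes of the 5 partner lists (red where the limma adjusted p is under 0.05, light grey otherwise); the dashed line is the median of all tested genes. Recombination and end joining genes lie near that line (median -0.072), and those of the other lists lie mostly below it.

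The effect differed between library sets for 2 of the 89 partner genes (limma interaction, adjusted p under 0.05), where 0.443% of all tested genes did. Spib, a transcription factor of B and plasmacytoid dendritic cells, had a log2 fold change of -1.89 in set 1 and -4.32 in set 2 (difference -2.43, SE 0.259, adjusted p = 0.011). Ikzf3, which encodes Aiolos, had -1.05 and -3.02 (difference -1.97, SE 0.317, adjusted p = 0.0476). Over 4 alternatives the limma adjusted p reached 0.0663 for Spib and 0.221 for Ikzf3, so neither call held throughout. In set 1 their Control levels were low: Spib was at 2.27 to 3.81 TPM there and at 18.4 and 22.5 TPM in the set 2 Controls. The members were not tested for this difference. Side by side, their log2 fold changes in set 1 and set 2 were -5.10 and -7.59 for Dntt, -0.81 and -4.45 for Rag1, and -4.21 and -4.70 for Vpreb2.

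The genes whose pattern was most like that of the members were found by Pearson correlation with the mean of the 9 members over 10 libraries, after the mean of each library set was taken out. The members themselves correlated with that mean by 0.988 to 0.999. The closest non-members were Il7r (r = 0.998), Fn3k (0.996), Pou2af1 (0.995), Arpp21 (0.995) and Mzb1 (0.994), followed by Slamf6, Bfsp2, Alpl, Foxo1 and Id3 (0.992). These correlations are a description: 18 of 10928 tested protein-coding non-members were as close as the least alike member, and the difference between the groups gives any gene that falls strongly a high value. As the choice by correlation largely fixes, each of the 10 was lower in Control 1 than in Controls 2 and 3. As a percentage of the mean of those, it ranged from 16.4% for Id3 (4.07 against 26.6 and 23.2 TPM) to 47.7% for Fn3k (1.27 against 2.63 and 2.67 TPM). Foxo1, a regulator of Rag gene expression, was at 2.55 TPM in Control 1 and 5.35 to 9.18 TPM in the other Controls.

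**Figure D5:**
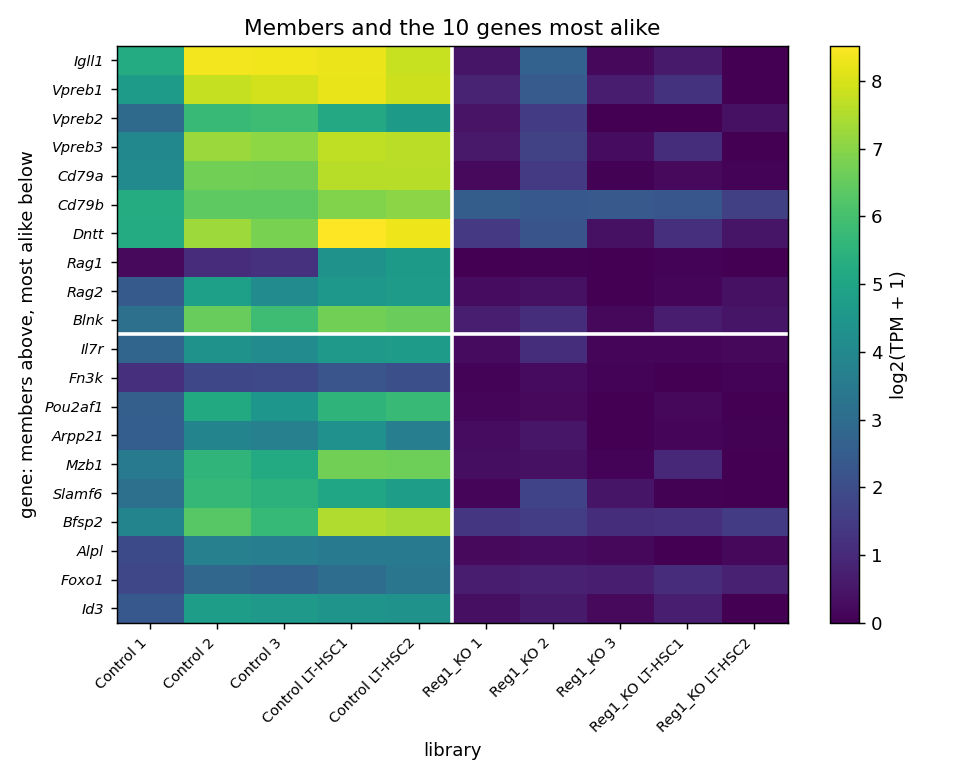
Heat map of log2(TPM + 1) for the 10 members (above the white line) and the 10 protein-coding genes most like them (below), with libraries in columns and Control to the left of the vertical line. Control 1 is the darkest Control column for most genes, and among the Controls Rag1 is lighter in the set 2 Controls (19.1 and 24.2 TPM).

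The members lie on 6 chromosomes, and their neighbours on the genome were looked up. The nearest tested protein-coding gene that was no member, on either side and within 100 kb, gave 12 neighbours, picked by position alone. Of these, 6 were lower, 1 was higher and 5 did not pass, where 37.9% of all tested genes were lower and 15.0% higher, with log2 fold changes from -0.94 (Zfp518a) to 1.07 (Tcam1). Arhgef1, 715 bases from Cd79a, changed by -0.80 (adjusted p = 0.000154) and Rps19 on its other side by -0.13 (adjusted p = 0.321). Traf6, next to the Rag genes, changed by -0.55 (adjusted p = 0.0039), but by 0.06 under quantile normalization. With that scaling only Arhgef1 of the 12 was lower and Tcam1 higher. The call of Top3b, next to Igll1 (-0.32), was also lost when same-numbered libraries were blocked (limma adjusted p = 0.0507). With a library left out its adjusted p reached 0.0798. Slc25a1 and Dgcr6, around Vpreb2, changed by 0.01 and 0.07 and did not pass, though both were higher with median-of-ratios scaling (adjusted p = 0.0128 and 0.00916).

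The promoters of 9 members matched a RefSeq entry (GRCm38.p6), and 4 motifs linked to B-lineage factors were searched on both strands in the 250 bases before the start. By GENCODE coordinates these 250 bases lie inside the gene for Vpreb1, Vpreb3 and Blnk, and partly inside for Vpreb2 and Cd79a. The E-box CAGGTG was in 6 of the 9 (Igll1, Vpreb1, Vpreb2, Cd79a, Rag1 and Blnk), and 17.2% of all 32851 promoters hold it. The palindromic E-box CAGCTG was in 3 (13.0% of all), the octamer ATGCAAAT in 2 (1.6%) and the EBF core CCCNNGGG in 1 (11.8%). No match overlapped another, the CAGGTG of Vpreb1 and Vpreb2 lies in copied sequence, and a match is a description and not a binding site. The E-box windows outside the surrogate light chain genes are shown with the motif in capitals, which reads CACCTG where it lies on the other strand. They lie at chr7:24897331-24897360 (plus strand), chr2:101649650-101649679 (minus) and chr19:40994364-40994393 (minus).
Cd79a: ttgtggccagccCAGGTGcagggcagttcc
Rag1: ttcctgaagagcCAGGTGccagctggagct
Blnk: aacctggcaacaCACCTGatcataaaagag

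The octamer, the rarest of the 4 motifs, was in the promoters of Vpreb3 (chr10:75948244-75948273, plus strand) and Blnk (chr19:40994333-40994362, minus strand). It lies on the other strand in both and so reads ATTTGCAT. Both matches lie inside the GENCODE span of the gene.
Vpreb3: tcagtgggctgATTTGCATgctctattgtg
Blnk: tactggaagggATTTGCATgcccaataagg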

How the data were processed

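RNA of CD34- HSCs was amplified and sequenced by the study, which aligned reads with STAR to GRCm38 and estimated TPM with Salmon (version 0.9.1 in the submitters' processing notes, which name mm10). The authors deposited log2(TPM + 1) per transcript, 1 column per library, so the values are on the log2 scale and no counts were at hand; the design had allowed for counts. TPM was recovered, and the 95912 transcripts were summed to 33393 genes. Genes that reached 1 TPM in 5 or more of the 10 libraries were tested with limma 3.58.1 (R 4.3.3; lmFit, eBayes) on log2(TPM + 1), with the library set as covariate, and Benjamini-Hochberg adjustment over 12874 genes at 0.05. The scripts were tested on simulated data first.

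The members and lists were chosen with earlier results of these data known. Named genes were the 10 members, up to 4 lower and 2 higher genes per partner list by size of change, 8 preset genes and the 10 most alike, of which 1 gene is not reported here; further genes of the lists, of Control 1 and of the neighbourhood were named after their values were seen. Coordinates are those of GENCODE M21, which holds 99.8% of the transcript identifiers, and promoters are RefSeq's. The design text speaks of individual mice but ties no library to one, so p-values measure the spread between these libraries. The header of Reg1_KO LT-HSC2 names Reg1_KO LT-HSC1 instead. Its values differed from those of that library, and its listed sample was kept. Alternatives were other filters, pseudocount, scalings and fits, each library set alone and each library left out. No promoter of Cd79b and no protein sequence was used here.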

Additional observations from a re-analysis of the deposited data

Results flagged for a closer look

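In 72 groups of 5 libraries (36 named genes, 2 groups each), the gap of the most distant library to its nearest neighbour was divided by the range of log2(TPM + 1), and 13 ratios were above the critical 0.71, where chance would give about 3.6 if the groups were independent. They are not: each group mixes 2 library sets, the genes were partly named by their values, and the members move together, so the low Control 1 is a single library seen in 5 genes. Control 1 was the outlying low Control for Igll1 (ratio 0.82), Vpreb1 (0.871), Vpreb3 (0.827), Cd79a (0.732) and Blnk (0.767). Reg1_KO 2 was the outlying high library of its label for Igll1 (0.77), Cd79a (0.866), Ebf1 (0.769) and Il7r (0.892). Reg1_KO 1 was outlying high for Igkc (0.741) and Iglc3 (0.815), genes that the members did not follow there. Reg1_KO LT-HSC2 was outlying low for Cd79b (0.729), and Control LT-HSC2 for Cd72 (0.816).

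The effect of the genotype label differed between the library sets, by the interaction test in limma, for Spib (difference of set 2 from set 1 -2.43) and Ikzf3 (-1.97). Over 4 alternatives the adjusted p ranged from 0.00625 to 0.0663 for Spib and from 0.0354 to 0.221 for Ikzf3.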

How the results depend on the processing

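All 172 values of single members under the alternatives were negative. That sign was largely fixed beforehand, since no member overlapped between the groups. Of these values, 13 moved by more than the spread between replicates. The median member log2 fold change was -4.17 where every library had to reach 1 TPM (only Cd79b was then left), -7.06 with a pseudocount of 0.1 and -7.12 in library set 2 alone, and -6.56 to -5.65 with each library left out. Partner genes lower numbered 63 to 65 with each library left out, 32 with the filter in every library, which tests fewer genes, and 69 with no filter. Partner genes higher numbered 5 with each library left out, 0 with no covariate, 2 in library set 1 alone, 0 in set 2 alone, 9 with quantile normalization and 13 with median-of-ratios scaling, which move the median of all genes upwards. Members differing between the Control sets numbered 0 with a pseudocount of 0.1, 2 with quantile normalization and 0 to 2 with each Control left out; the cause was not tested. With no filter the 1 member was Rag1 in place of Dntt. Partner genes whose effect differed between sets numbered 4 with no filter, 1 with a pseudocount of 0.1 and 1 with median-of-ratios scaling, and these and the alternatives for Control 1, where the count was 6 in each, were chosen after seeing the data. With the replicate block, 63 partner genes were lower and 5 higher; same-numbered libraries had residual correlations of 0.0334, 0.175 and 0.0683 in set 1 and -0.0544 in set 2, so the numbers were not taken to pair the libraries. Depth is unknown and sets no stated limit.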
